A study of Mus musculus with 18 samples.

Results

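The genes described here encode the phagocyte NADPH oxidase and its relative Nox4, 6 of the 20259 genes with a named row on the array. They were taken by symbol: Cybb, Cyba, Ncf1, Ncf4 and Rac2, which code for subunits of the enzyme of phagocytes, and Nox4, which codes for a separate oxidase. A row of the value table was used where the platform annotation gave it exactly 1 symbol, and where a gene had several such rows the one that was brightest on average over the 18 arrays was taken. Nox4 had 2 such rows and the other 5 genes had 1 each.

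The data are Affymetrix Mouse Exon 1.0 ST arrays of quadriceps RNA from male mice of 10 weeks, 3 biologically independent samples in each of 6 groups. The mice were kept on a C57BL/6 background. The groups were wt, Dysf-/- (mice without dysferlin, a membrane repair protein of muscle), F66, F66;Dysf-/-, and wt and Dysf-/- mice that had been injected with ACVR2B/Fc. F66 is a transgene on the Y chromosome that drives follistatin (Fst), a secreted inhibitor of myostatin and activins, from a myosin light chain promoter of skeletal muscle. ACVR2B/Fc joins the outer domain of an activin receptor (ACVR2B) to an antibody Fc domain, traps the same ligands and was given by 4 weekly intraperitoneal injections of 10 mg/kg (200 µg) from 6 weeks of age. The untreated wt and Dysf-/- arrays are labelled as having had no treatment, so no vehicle injection stands beside the ACVR2B/Fc groups. Values are log2 RMA values (background-corrected, quantile-normalized and summarized probe signals), on which a difference of 1 is a doubling of signal.

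The arrays followed their labels. The Dysf row lay between 6.76 and 7.10 on the 9 Dysf-/- arrays of all kinds and between 8.48 and 8.91 on the 9 arrays with dysferlin, and the Fst row lay between 5.92 and 6.38 on the 6 F66 arrays and between 5.10 and 5.85 on the other 12. The 13 skeletal muscle fibre markers measured summed to between 16.24 and 16.29 on the log2 scale in F66;Dysf-/- muscle. This was below every array of the other groups, at 16.34 to 16.42. No pair of arrays correlated below 0.954 over the rows. Replicate 1 of the ACVR2B/Fc-injected Dysf-/- group had the lowest Cybb, Cyba, Ncf1, Ncf4, Rac2 and Nox4 values of its group, and results that depend on it are given with and without it.

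The phagocyte NADPH oxidase moves electrons from NADPH across a membrane onto oxygen and so makes superoxide, the first product of the respiratory burst with which neutrophils and macrophages attack microbes. Its core is flavocytochrome b558, made of gp91phox (Cybb), which carries the electrons, and p22phox (Cyba), which stabilizes it. In a resting cell the organizer p47phox (Ncf1) and p40phox (Ncf4) wait in the cytosol, and they join the membrane core together with the GTPase Rac2 once the cell is activated. Nox4 also pairs with p22phox, but it needs no cytosolic subunit, releases mainly hydrogen peroxide and is found in fibroblasts, endothelium, kidney and muscle rather than in phagocytes. In injured muscle the phagocyte enzyme is known chiefly from the neutrophils and macrophages that enter the tissue, whereas Nox4 is known as a target of TGF-β signalling in fibroblasts.

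The promoters of the membrane proteins of both oxidases are shown because the genes rose together in one group while their start regions differ in composition. The RefSeq table (GRCm38.p6) held promoters for 4 of the 6 genes, each covering 250 bases before and 50 bases after the start of the gene. Capitals mark matches, on either strand, to a PU.1-type motif, a CCAAT box or a GC box.
Cybb, chrX:9469275-9469574, minus strand: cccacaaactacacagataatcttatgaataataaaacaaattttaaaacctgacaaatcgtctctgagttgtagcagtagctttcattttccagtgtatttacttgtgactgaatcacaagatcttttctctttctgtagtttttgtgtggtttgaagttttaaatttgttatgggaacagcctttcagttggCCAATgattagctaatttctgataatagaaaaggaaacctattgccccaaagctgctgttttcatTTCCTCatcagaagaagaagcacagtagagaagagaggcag
Cyba, chr8:122432891-122433190, minus strand: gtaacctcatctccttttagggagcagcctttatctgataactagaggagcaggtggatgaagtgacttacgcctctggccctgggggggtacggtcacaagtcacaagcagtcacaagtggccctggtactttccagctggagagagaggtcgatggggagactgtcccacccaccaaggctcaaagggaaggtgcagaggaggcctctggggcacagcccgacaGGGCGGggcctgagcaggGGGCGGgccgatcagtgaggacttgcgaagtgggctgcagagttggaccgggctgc
Nox4, chr7:87246399-87246698, plus strand: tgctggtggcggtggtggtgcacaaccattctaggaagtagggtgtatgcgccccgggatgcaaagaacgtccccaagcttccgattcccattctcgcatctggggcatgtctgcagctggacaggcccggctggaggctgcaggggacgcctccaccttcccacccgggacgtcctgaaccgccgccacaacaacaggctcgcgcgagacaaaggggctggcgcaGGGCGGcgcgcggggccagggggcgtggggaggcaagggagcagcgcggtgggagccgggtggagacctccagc

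Of these sequences only that of Cybb held the PU.1-type motif, the core letters bound by the myeloid transcription factor PU.1 (Spi1), at bases 10 to 15 after the start and on the strand opposite to the gene. Searched on both strands, GAGGAA was present in 28.3% of the 32851 promoters of the table. The Cybb promoter also held a CCAAT box that began 56 bases before the start, a motif present in 37.4% of promoters. It was poor in G and C (35.3%, with 3.98% of promoters lower), and it held no GC box. The Nox4 promoter was 68.3% G and C and held 1 GC box that began 24 bases before its start, the Cyba promoter (60.7%) held 2, and that of Ncf1 (54%, not shown) held 1. GC boxes (GGGCGG) were present in 35.7% of promoters, and TATAAA, present in 13.6%, was in none of the 4. None of the matches overlapped another. A match to such letters describes the sequence and was not tested as a binding site.

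All 6 genes were highest in F66;Dysf-/- muscle, where each of the 3 arrays lay above each of the other 15. This held for 11.7% of all genes. The genes differed in how far they rose there, from 7.99-fold over Dysf-/- muscle for Cybb to 1.59-fold for Ncf4, and in what happened in the other groups. Cybb was already higher in Dysf-/- and in F66 muscle, Ncf1 and Nox4 were higher in F66 muscle, and no rise of Cyba, Ncf4 or Rac2 passed the test with dysferlin loss alone or with F66 alone. The moderated F test of limma over the 6 groups called all 6 genes, with adjusted p from 1.34e-10 for Cybb to 0.000142 for Ncf4, against 49.2% of all genes called.

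**Figure D1:**
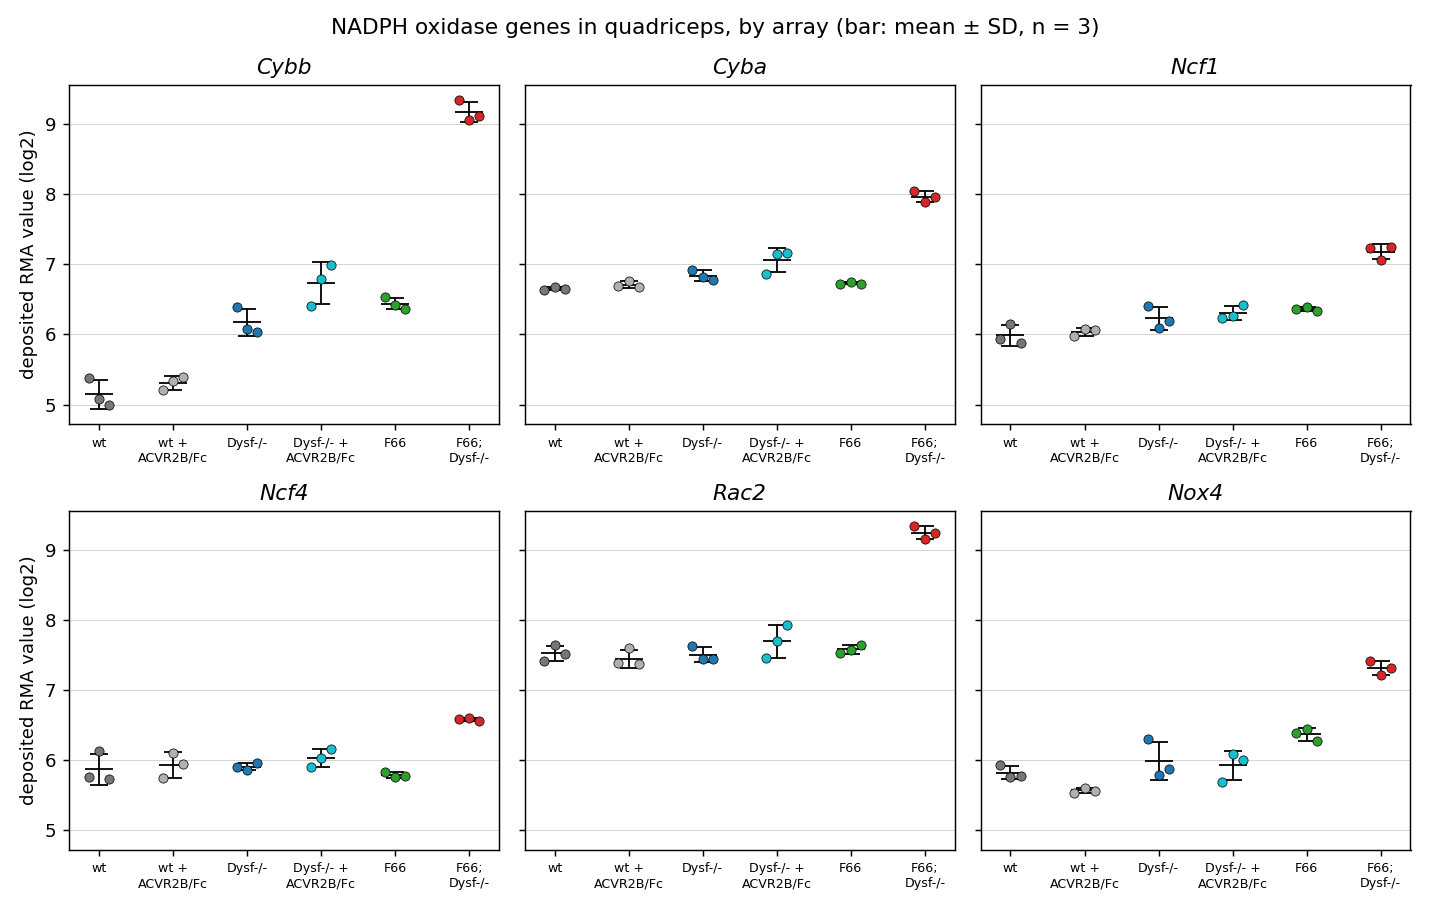
Deposited log2 RMA value (vertical axis) of each NADPH oxidase gene on each of the 18 arrays, by group (horizontal axis); points are arrays and bars the mean ± SD of 3. The 3 F66;Dysf-/- arrays lie above all others in every panel, by the widest margin for Cybb (9.06 or more against 6.99 or less).

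Cybb, the electron-carrying subunit, had the widest range of the 6. It read 5.38, 5.07 and 4.99 on the wt arrays and 5.20, 5.34 and 5.40 after ACVR2B/Fc injection of wt mice. It read 6.40, 6.07 and 6.04 on the Dysf-/- arrays, 6.41, 6.80 and 6.99 on the ACVR2B/Fc-injected Dysf-/- arrays and 6.53, 6.42 and 6.37 on the F66 arrays. On the F66;Dysf-/- arrays it read 9.34, 9.06 and 9.11. The levels thus formed 3 tiers that did not overlap: both dysferlin-intact groups without the transgene, then Dysf-/-, F66 and injected Dysf-/- muscle, then F66;Dysf-/- muscle. Within the middle tier neighbouring groups overlapped and did not differ beyond their spread in limma (F66 over Dysf-/- by 0.27 ± 0.14, SE, adjusted p = 0.273, and injected Dysf-/- over F66 by 0.29 ± 0.14, adjusted p = 0.146).

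Cyba, the partner of both Cybb and Nox4 in the membrane, ranged less. It read 6.63, 6.67 and 6.64 on the wt arrays, 6.92, 6.82 and 6.77 on the Dysf-/- arrays and 6.72, 6.75 and 6.72 on the F66 arrays. On the F66;Dysf-/- arrays it read 8.04, 7.89 and 7.96, against at most 7.16 on any other array, and the highest of those others was an ACVR2B/Fc-injected Dysf-/- array. The 3 Dysf-/- arrays lay above the 3 wt arrays, as for 5.21% of genes, yet the difference of 0.19 (95% confidence interval 0.03 to 0.34) did not pass the test over all genes (limma, adjusted p = 0.377).

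Among the cytosolic subunits, the organizer Ncf1 read 5.94, 6.15 and 5.87 in wt, 6.37, 6.38 and 6.33 in F66 and 7.23, 7.06 and 7.25 in F66;Dysf-/- muscle, and the Dysf-/- arrays (6.41, 6.09 and 6.18) overlapped with wt. Ncf4 read 5.75, 6.12 and 5.74 in wt, 5.91, 5.86 and 5.96 in Dysf-/- and 6.58, 6.60 and 6.55 in F66;Dysf-/- muscle. Its other 5 groups overlapped with their neighbours in order of level, and F66 muscle, with 5.83, 5.76 and 5.77, had the lowest mean. Rac2, the GTPase of blood cells, was the brightest of the rows and read 7.42, 7.64 and 7.51 in wt, 7.63, 7.44 and 7.44 in Dysf-/- and 7.52, 7.57 and 7.65 in F66 muscle. These 3 groups overlapped fully, whereas F66;Dysf-/- muscle read 9.33, 9.15 and 9.23. Ncf4 and Rac2 thus shared a pattern of similar levels in 5 groups and a step up in the sixth.

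Nox4 read 5.94, 5.76 and 5.77 in wt, 6.30, 5.79 and 5.88 in Dysf-/- and 6.39, 6.44 and 6.27 in F66 muscle. On the F66;Dysf-/- arrays it read 7.41, 7.22 and 7.32. F66 muscle was second in order, above wt on every array (14.8% of genes) but overlapping with Dysf-/- through the array of 6.30 (difference 0.38 ± 0.12, SE, limma adjusted p = 0.0584). The lowest level was in ACVR2B/Fc-injected wt muscle, at 5.54, 5.61 and 5.56. The second Nox4 row was dim (mean 3.30, above 9.92% of all rows). It was also highest in F66;Dysf-/- muscle, at 4.15 to 4.42 against at most 3.98 elsewhere, but its F66 arrays (2.94 to 3.67) overlapped with wt (2.87 to 3.98).

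Loss of dysferlin alone was addressed by Dysf-/- against wt muscle. Of the 6 genes only Cybb was called higher, by 1.02 ± 0.14 on the log2 scale (SE, n = 3 and 3, 2.03-fold, limma adjusted p = 0.00215), while 0.301% of all genes were called higher. Cybb ranked 13 of 20259 by difference. The other 5 differed by between -0.02 (Rac2) and 0.24 (Ncf1), and the upper ends of their 95% intervals reached at most 0.43. Ncf1 (0.24, interval 0.05 to 0.43) and Cyba (0.19, interval 0.03 to 0.34) had unadjusted limma p of 0.0155 and 0.02 but did not pass. An unadjusted p under 0.05 was seen for 9.84% of all genes. The exact permutation test of a single gene cannot go below p = 0.1 with 3 arrays against 3, and Cybb reached that value. With only the compared groups in the fit the adjusted p was 0.0572. By the methods' t-test Cybb passed at the methods' own threshold, which sets an unadjusted p and a fold change together, as did 0.0938% of all genes. After Benjamini-Hochberg adjustment over all genes, which the methods do not state, it did not pass by that test (adjusted p = 0.424).

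ACVR2B/Fc injection, the pharmacological block, gave no difference of the 6 genes that passed in either genotype, by limma or by the methods' t-test at either threshold. In wt mice 0.0296% of genes were called by limma in either direction. None of the 6 reached an unadjusted limma p under 0.05 (7.61% of genes did). By the methods' own test Nox4 alone was under 0.05 before adjustment, and it did not pass after adjustment (adjusted p = 0.677). The share of all genes under 0.05 by that test is not given here, so this count cannot be set against a background. Nox4 was lower on all 3 injected wt arrays than on the wt arrays (difference -0.25 ± 0.12, limma adjusted p = 0.657). Groups that did not overlap were seen for 11.8% of genes. The dim second row of Nox4 was also lower there (difference -0.73 ± 0.31, limma unadjusted p = 0.0301, adjusted p = 0.596). Its arrays overlapped, at 2.38 to 2.94 in injected wt and 2.87 to 3.98 in wt muscle. The phagocyte subunits differed by between -0.07 and 0.16. In Dysf-/- mice 0.0247% of genes were called. There Cybb was higher on all 3 injected arrays (14.2% of genes), by 0.56 ± 0.14 (adjusted p = 0.0937), and Cyba was higher by 0.22 ± 0.07 with overlapping arrays (adjusted p = 0.156). These were the 2 of the 6 genes with an unadjusted limma p under 0.05, which 18.8% of all genes reached. Without replicate 1 of the injected Dysf-/- group these differences were 0.72 (adjusted p = 0.0258) and 0.32 (adjusted p = 0.0306) and both passed, and the genes called over the whole table went from 5 to 574. The difference of the injection effect between genotypes passed for none of the 6 (0.00494% of genes called; 0 of the 6 at an unadjusted p under 0.05, and 7.75% of genes), with 0.40 for Cybb (interval -0.02 to 0.82).

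Injected Dysf-/- muscle compared with injected wt muscle gave the effect of dysferlin loss a second time, in other arrays. Cybb was higher by 1.42 ± 0.14 (2.68-fold, limma adjusted p = 5.16e-05) and Cyba by 0.35 ± 0.07 (adjusted p = 0.022), with 1.33% of genes called higher. Ncf1, Rac2 and Nox4 differed by 0.27, 0.25 and 0.36 without passing, and Ncf4 by 0.10. The call of Cyba was lost without injected wt replicate 1 (adjusted p = 0.0908) or 3 (0.0958) and without injected Dysf-/- replicate 2 (0.114) or 3 (0.105).

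F66 against wt muscle addressed the follistatin transgene where dysferlin was present. Cybb rose by 1.29 ± 0.14 (2.44-fold, limma adjusted p = 1.59e-05), Nox4 by 0.54 ± 0.12 (1.46-fold, adjusted p = 0.00648) and Ncf1 by 0.37 ± 0.09 (1.30-fold, adjusted p = 0.01), so 3 of the 6 were called higher against 8.11% of all genes. Cyba differed by 0.08 (interval -0.07 to 0.24), Rac2 by 0.06 (-0.16 to 0.28) and Ncf4 by -0.08 (-0.30 to 0.13). The rise of Nox4 was not seen in its second row (0.03 ± 0.31), and with the mean of both rows it was 0.29 (adjusted p = 0.352). When all 115830 rows entered the fit, named or not, Nox4 (0.0565) and Ncf1 (0.0974) did not pass.

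In the absence of dysferlin the transgene went with a rise of every gene. F66;Dysf-/- exceeded Dysf-/- muscle by 3.00 ± 0.14 for Cybb (7.99-fold), 1.74 ± 0.10 for Rac2 (3.34-fold), 1.32 ± 0.12 for Nox4 (2.50-fold), 1.12 ± 0.07 for Cyba (2.18-fold), 0.95 ± 0.09 for Ncf1 (1.93-fold) and 0.67 ± 0.10 for Ncf4 (1.59-fold). The limma adjusted p ran from 5.23e-10 for Cybb to 0.000103 for Ncf4, and 6 of 6 were called higher against 15.2% of all genes. Their median difference was 1.22, beside -0.09 over all genes tested. F66;Dysf-/- also exceeded F66 muscle for 6 of 6 (14.5% of genes), by 0.79 (Ncf4) to 2.73 (Cybb), and ACVR2B/Fc-injected Dysf-/- muscle for 6 of 6 (16.2%), by 0.55 (Ncf4) to 2.44 (Cybb). These comparisons share the F66;Dysf-/- arrays. None of the 6 lost its call in any of the 3 when any single array was left out.

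**Figure D2:**
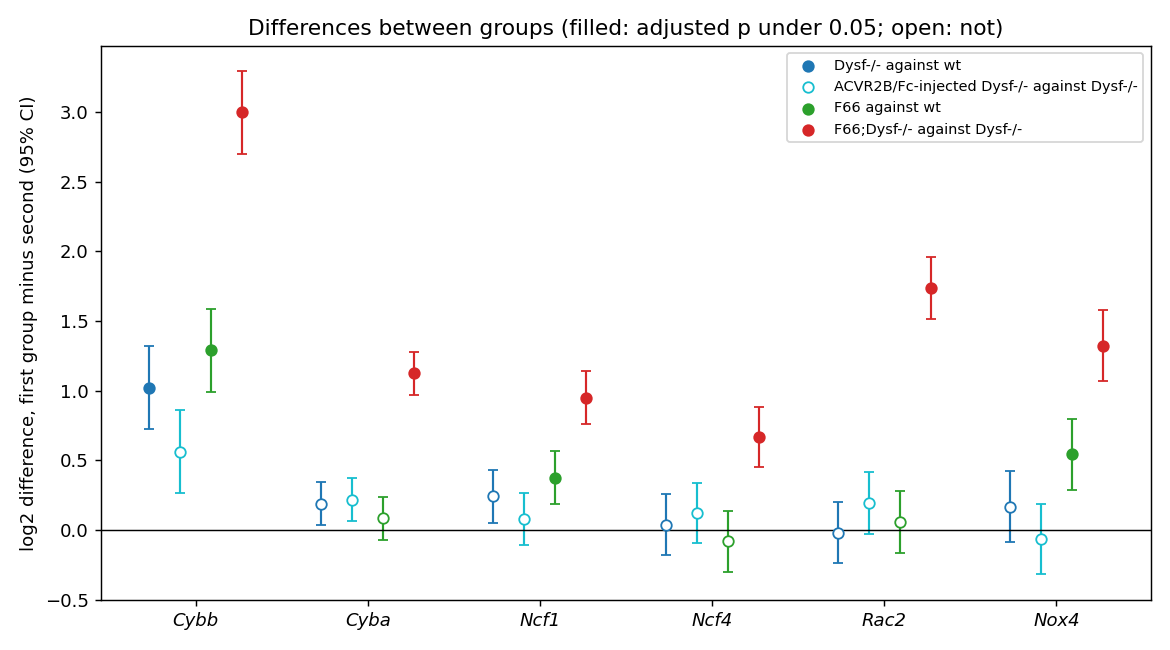
Log2 difference between groups (vertical axis, with 95% confidence interval) of each gene (horizontal axis) in 4 comparisons, marked by colour; filled points passed limma's test over all genes. Every gene passes in F66;Dysf-/- against Dysf-/- (0.67 to 3.00), whereas only Cybb passes in Dysf-/- against wt (1.02).

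The effect of F66 was larger without dysferlin than with it for each gene. The difference of the 2 effects, tested as an interaction, was 1.71 ± 0.20 for Cybb (limma adjusted p = 2.83e-05), 1.68 ± 0.15 for Rac2 (2.78e-06), 1.04 ± 0.10 for Cyba (7.67e-06), 0.78 ± 0.17 for Nox4 (0.00487), 0.75 ± 0.14 for Ncf4 (0.00204) and 0.57 ± 0.13 for Ncf1 (0.00499). All 6 passed, against 8.54% of genes called in that direction. For Rac2, Cyba and Ncf4 the interaction was close in size to the whole F66 effect in Dysf-/- mice, since these genes had moved little in wt mice.

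The phagocyte subunits were then set against Nox4 by testing, on each array, the value of the gene minus that of the brighter Nox4 row. Cybb outran Nox4 in every transgenic comparison: its change was larger by 0.75 ± 0.15 in F66 against wt (limma adjusted p = 0.000237), by 1.67 ± 0.15 in F66;Dysf-/- against Dysf-/- (1.03e-11) and by 1.78 ± 0.15 in F66;Dysf-/- against F66 (1.11e-11). Genes that outran Nox4 in these comparisons were 0.884%, 0.666% and 0.992% of all genes. Against that row the change of Rac2 was smaller than that of Nox4 in F66 against wt (-0.49 ± 0.15, adjusted p = 0.00515) and larger in F66;Dysf-/- against Dysf-/- (0.41 ± 0.15, adjusted p = 0.0105) and against F66 (0.71 ± 0.15, adjusted p = 5.35e-05). The values in F66 against wt depended on which row stood for Nox4, since the second row did not rise there. With the second row in its place, a choice made after seeing the data, Rac2 differed from Nox4 by 0.03 ± 0.36 in F66 against wt, and with the mean of both rows by -0.23 ± 0.24, neither of which passed. In F66;Dysf-/- against Dysf-/- Rac2 exceeded Nox4 by 0.45 (adjusted p = 0.218) with the second row and by 0.43 (0.0729) with the mean, and against F66 by 0.72 (0.0527) and 0.71 (0.00316). Cybb passed with either choice in both comparisons of F66;Dysf-/- muscle (1.69 to 1.79), and in F66 against wt with the mean (1.00 ± 0.24, adjusted p = 0.00325) but not with the second row (1.26 ± 0.36, adjusted p = 0.128).

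No other subunit passed as rising more than Nox4. In F66 against wt muscle Cyba (-0.46 ± 0.15) and Ncf4 (-0.63 ± 0.16) changed less than the brighter Nox4 row, as did 85.3% of all genes, and the difference of Ncf1 (-0.17 ± 0.15) did not pass. None of the 3 passed with the second row (0.05 for Cyba, -0.11 for Ncf4, 0.35 for Ncf1) or with the mean of both rows (-0.20, -0.37 and 0.09). In F66;Dysf-/- against Dysf-/- muscle Ncf4 (-0.66 ± 0.16, adjusted p = 0.000312) and Ncf1 (-0.37 ± 0.15, adjusted p = 0.0176) changed less, as did 97.8% of genes, while Cyba, the partner subunit of Nox4, differed from it by -0.20 (interval -0.50 to 0.10). The call of Ncf1 was lost without Dysf-/- replicate 3 (adjusted p = 0.0576) or F66;Dysf-/- replicate 1 (0.0537), and without Dysf-/- replicate 1 Cyba also passed (-0.31, adjusted p = 0.0115). With the mean of both rows Ncf4 passed (-0.64, adjusted p = 0.00753) and Ncf1 did not (0.135), and with the second row neither did (0.0844 and 0.345). With only the compared groups in the fit the call of Ncf1 was lost too (0.0763), and Cyba then passed as rising more than Nox4 in F66;Dysf-/- against F66 muscle (0.28, adjusted p = 0.0153, and 0.0641 with all groups). When the F66 effects in Dysf-/- and wt mice were compared on this scale, Cybb (0.93 ± 0.21, adjusted p = 0.000477) and Rac2 (0.90 ± 0.22, adjusted p = 0.000814) gained on Nox4 without dysferlin (0.652% of genes), and the other 3 did not pass. With the mean of both rows these were 0.69 (0.0463) and 0.66 (0.056), and with the second row neither passed (0.386 and 0.417).

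**Figure D3:**
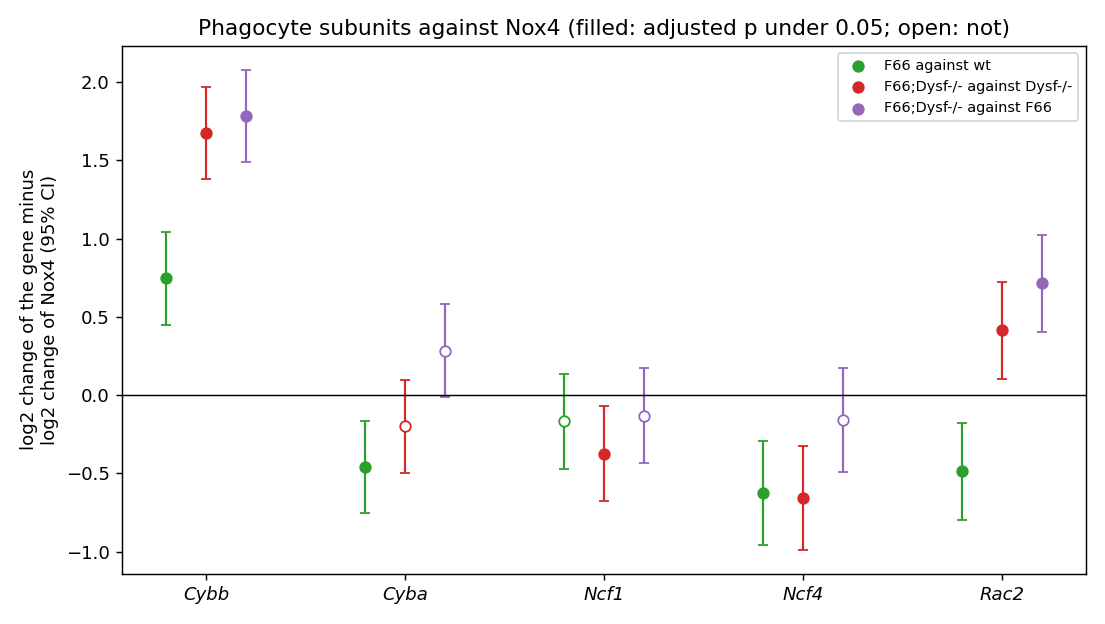
Log2 change of each phagocyte subunit minus that of the brighter Nox4 row (vertical axis, with 95% confidence interval), by gene (horizontal axis) and comparison (colour); filled points passed limma's test. Cybb lies above 0 in all 3 comparisons (0.75 to 1.78), Rac2 runs from -0.49 in F66 against wt, a value of 0.03 with the second Nox4 row, to 0.71 in F66;Dysf-/- against F66, and Ncf4 lies below 0 throughout, with 1 of its 3 points open.

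Other genes of the oxidase family were described from a list of 16 measured genes, of which F66;Dysf-/- muscle showed 4 higher and 3 lower than Dysf-/- muscle (median -0.11, beside -0.09 over all genes). Over all genes 15.2% were called higher and 18.4% lower, so these counts were near the background. The risers were Sh3pxd2b (1.19, adjusted p = 1.36e-08) and Sh3pxd2a (0.27, 0.00413), which encode organizer-like scaffolds of podosomes, the voltage-gated proton channel Hvcn1 (0.85, 2.52e-07), which carries out charge during the burst, and Cybc1 (0.35, 0.000535), a chaperone of the Cybb and Cyba proteins. Rac1, the widely expressed relative of Rac2, fell by 0.53 (adjusted p = 0.0105), Poldip2, a partner of Nox4, fell by 0.28 (0.00152) and Duox2 fell by 0.24 (0.0374). Nox1 (-0.14), Nox3 (-0.16) and Duox1 (-0.10), the other catalytic enzymes measured, did not pass. With F66 alone Rap1a (0.41) and Sh3pxd2a (0.37) rose over wt and Poldip2 (-0.21) fell, beside 8.11% of all genes called higher and 5.5% lower. In Dysf-/- against wt muscle none of the 16 passed, beside 0.489% of all genes called.

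Genes known to act in switching the enzyme on included many that rose. Of 21 measured genes for kinases, exchange factors and GTPase regulators, 17 were higher and 2 lower in F66;Dysf-/- than in Dysf-/- muscle, with a median of 0.77, against 15.2% of all genes called higher and 18.4% lower. The 4 with the smallest p were Vav1 (1.52, adjusted p = 2.62e-09) and Dock2 (1.39, 3.14e-09), which load Rac with GTP, the tyrosine kinase Btk (1.31, 1.45e-08) and the PI3-kinase subunit Pik3cg (1.13, 2.8e-08). Prkcb, a protein kinase C that phosphorylates p47phox, rose by 1.95. Tiam1 (-0.55) and Prkca (-0.32) fell. With F66 alone 8 rose and 1 fell (8.11% and 5.5% of all genes). In Dysf-/- against wt muscle Dock2 alone rose (0.38, adjusted p = 0.0443), beside 0.301% of all genes called higher.

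Transcription factors known to act on the phagocyte oxidase genes, mostly from human cells, gave 4 risers and 1 faller among 8 in F66;Dysf-/- against Dysf-/- muscle, beside 15.2% and 18.4% of all genes. Spi1, which encodes PU.1, rose by 1.57 (adjusted p = 3.25e-08), Irf8 by 0.63 (1.54e-06), Cebpa by 0.57 (0.000581) and Elf1 by 0.44 (0.000295), and Gata1 fell by 0.34 (0.0303). With F66 alone Spi1 rose by 0.44, Irf8 by 0.31 and Elf1 by 0.24, beside 8.11% of all genes called higher.

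Of 26 measured antioxidant genes, which handle the products of the oxidases, 5 were higher and 9 lower in F66;Dysf-/- than in Dysf-/- muscle (median -0.09, beside -0.09 over all genes). Of all genes 15.2% were called higher and 18.4% lower. Heme oxygenase Hmox1 (1.16), extracellular superoxide dismutase Sod3 (1.07) and the peroxidase Gpx1 (0.93) rose. The mitochondrial superoxide dismutase Sod2 (-0.51), the cytosolic Sod1 (-0.34), catalase (Cat, -0.48) and the quinone reductase Nqo1 (-0.87) fell. Superoxide dismutases thus went in both directions, the secreted one up and the intracellular ones down.

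The value of whole muscle RNA cannot separate more cells of a type from more RNA per cell. All 16 measured macrophage and monocyte markers rose in F66;Dysf-/- against Dysf-/- muscle (median 1.90), beside 15.2% of all genes called higher. Those with the smallest p were Adgre1 (2.86), Ctss (2.11), Clec7a (1.94) and Mpeg1 (2.85). Their summed level on the log2 scale was 10.13 to 10.18 in wt, 10.19 to 10.39 in injected wt, 10.55 to 10.86 in Dysf-/-, 10.76 to 11.13 in injected Dysf-/-, 10.90 to 11.15 in F66 and 12.68 to 12.88 in F66;Dysf-/- muscle. This is the order of the tiers of Cybb. In Dysf-/- against wt muscle, where Cybb rose by 1.02, 7 of the 16 were called higher, beside 0.301% of all genes. They were Mpeg1 (1.61), Cd68 (1.32), Adgre1 (0.90), Ctss (0.89), Clec7a (0.66), Ccr2 (0.64) and Tyrobp (0.58). In F66 against wt muscle 9 rose and 1 fell, beside 8.11% and 5.5% of all genes. The part of these cells in the rise of the oxidase genes was not tested.

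Neutrophil markers, the other main phagocyte list, were called about as often as all genes (15.2% higher and 18.4% lower). Of 15 measured, 2 rose (Csf3r 1.14, Mmp8 0.46) and 2 fell (Ly6g -0.24, Mpo -0.20) in F66;Dysf-/- against Dysf-/- muscle, and the summed level was 9.37 to 9.43 in F66;Dysf-/- and 9.34 to 9.38 in Dysf-/- muscle, within the range of 9.24 to 9.56 over all groups. Against injected Dysf-/- muscle 2 of the 15 rose and 7 fell, where 16.2% of all genes were called higher and 28.2% lower. Fibroblast markers rose, with 14 of 14 higher (median 1.38; Postn 2.71, Col3a1 1.65, Lum 1.37, Loxl1 1.45) and a summed level of 13.53 to 13.69 in F66;Dysf-/-, 12.46 to 12.63 in F66, 12.12 to 12.24 in Dysf-/-, 12.02 to 12.50 in injected Dysf-/-, 11.80 to 11.93 in injected wt and 11.81 to 12.03 in wt muscle. In F66 against wt muscle, where Nox4 rose by 0.54, 11 of these 14 rose and 1 (Acta2, -0.34) fell, beside 8.11% and 5.5% of all genes. In F66;Dysf-/- against Dysf-/- muscle 7 of 12 endothelial markers were lower and none higher (median -0.19), and 7 of 13 muscle fibre markers were lower and 1 higher (median -0.13), by at most 0.57, beside 18.4% of all genes lower. Of 10 genes listed as eosinophil and mast cell markers, the mast cell genes Cpa3 (0.99) and Cma1 (0.40) and the listed gene Siglece (0.59) rose, and 7 were not called. Of 13 lymphocyte markers 2 rose (Cd4 0.36, Nkg7 0.36) and 1 fell (Cd8a -0.24). The part of fibroblasts in the rise of Nox4 was not tested.

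**Figure D4:**
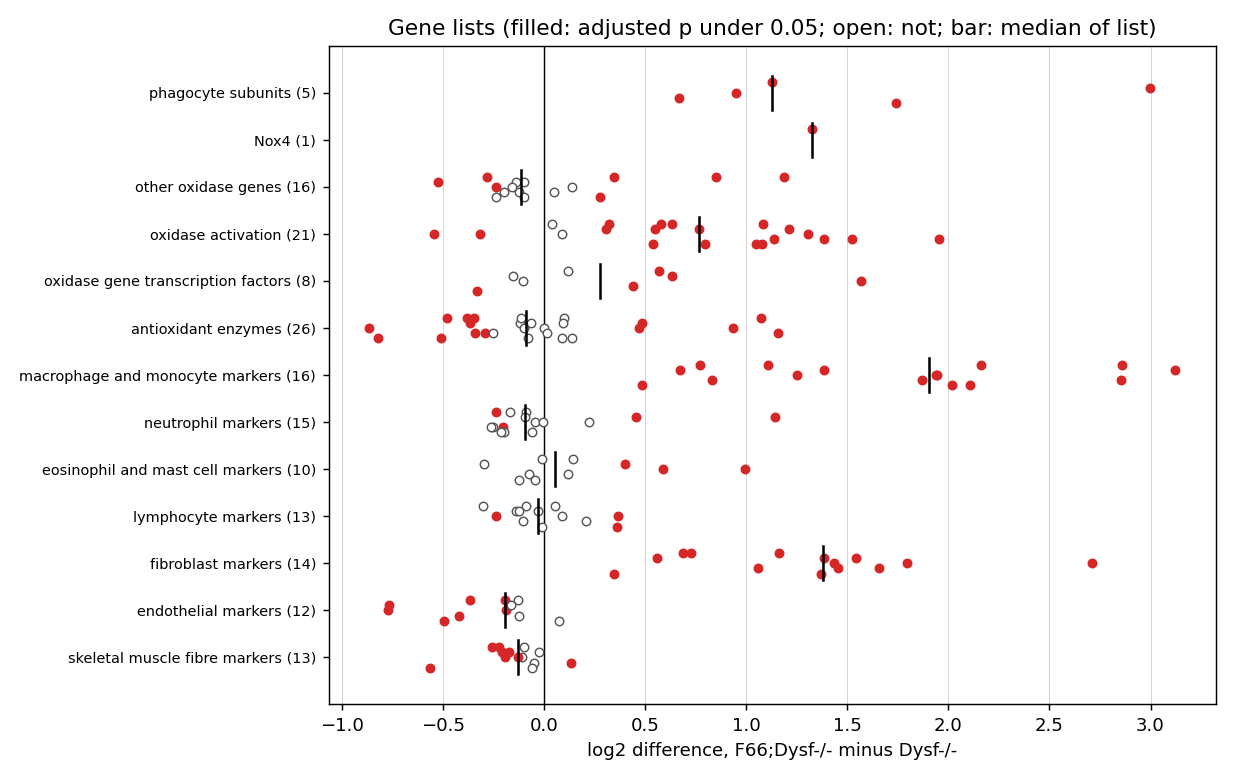
Log2 difference of F66;Dysf-/- minus Dysf-/- muscle (horizontal axis) for each measured gene of each list (vertical axis, number of genes in brackets); filled points passed limma's test over all genes and the bar is the median of the list. The phagocyte subunits (median 1.12) lie to the right with the macrophage and monocyte (1.90), fibroblast (1.38) and activation lists (0.77), while neutrophil markers (-0.10) lie around 0.

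The genes whose group means moved most like those of Cybb were found by the root mean square of the distances between the 5 differences from wt. The nearest were a row annotated as the ribosomal pseudogene Rps15a-ps2 (0.19), the complement receptor C3ar1 (0.19), the macrophage receptor Adgre1 (0.20) and Gpnmb (0.25), a glycoprotein of macrophages and lysosomes. C3ar1 stood above wt by 1.10 in Dysf-/-, 1.39 in F66 and 4.32 in F66;Dysf-/- muscle, and Cybb by 1.02, 1.29 and 4.02. The nearest to Nox4 were Ccdc141 (0.11), the phosphatase Ptprj (0.11), the complement protease C1ra (0.11) and the matrix glycoprotein Thbs2 (0.12). Between the members themselves Cyba and Ncf1 were nearest (0.15), and Cybb was far from all (1.41 to 1.78) because its differences were larger. These distances rest on 6 group means.

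Ncf4 and Rac2 lie near each other on mouse chromosome 15, and 16 annotated genes, 10 of them protein-coding, stand between them in the reference. Of these, 9 had a named row. In F66;Dysf-/- against Dysf-/- muscle the cytokine receptor chains Csf2rb (1.25, adjusted p = 1.09e-08) and Il2rb (0.70, 1.47e-05) and C1qtnf6 (0.99, 2.08e-05) rose, the sulfur transferases Tst (-0.64, 0.000462) and Mpst (-0.54, 0.000155) fell, and Tex33, Kctd17, Tmprss6 and Sstr3 did not pass. Over all genes 15.2% were called higher and 18.4% lower in this comparison. A relation of these 9 genes to the step up of Ncf4 and Rac2 was not tested.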

How the data were processed

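Total RNA of quadriceps muscle was measured on 18 arrays, 3 per group, and each array took its group from its title. The authors deposited log2 values, 1 per row and array, made by RMA in Partek against build mm9 per the submitters' notes; versions are not given in the sources used here. RMA quantile normalizes the arrays, which removes part of any change shared by most genes, and log2 values of dim rows understate differences. No detection calls were used. Of 115830 rows, 25539 carried 1 symbol and 2300 several; 20259 genes were tested, each by its brightest row. Of these, 19800 were matched by gene number to the reference table, and 0 symbols differed.

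limma 3.58.1 (R 4.3.3; lmFit, contrasts.fit, eBayes) was fitted to the 6 group means, with 12 residual and 3.2 prior degrees of freedom and Benjamini-Hochberg adjustment over all genes; adjusted p under 0.05 was called. The comparison with Nox4 was a separate limma fit of the same design to gene minus the brighter Nox4 row. It had 23.4 prior degrees of freedom, since every gene there carries the same variation of Nox4. The genes of that fit are therefore not independent, and its p-values and intervals may be too small. The number of arrays limits the precision. Promoters came from RefSeq (GRCm38.p6), and no mm9 coordinates are given.

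The members and the gene lists were chosen with earlier results of these data known. Named genes were all members, the other Nox and Duox enzymes and Rac1, and from each list up to 4 genes with the smallest p in F66;Dysf-/- against Dysf-/- and any gene called in Dysf-/- against wt or after ACVR2B/Fc; also the 4 genes most like Cybb and Nox4 and the genes between Ncf4 and Rac2. Further genes (such as Prkcb, Sod1 and Cat) were named after their values were seen. Same-numbered arrays deviated from their group means with correlations of -0.07 to 0.29, so the numbers were not taken to pair samples. The alternatives tried were the block, other normalizations and centring, a filter on dim genes, other rows, only the compared groups, a robust trended variance, the methods' t-test, leaving out each array and, chosen after seeing the data, other rows for Nox4.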

Additional observations from a re-analysis of the deposited data

Results flagged for a closer look

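The F66 effect differed between Dysf-/- and wt mice for each of the 6 genes, by limma's interaction test over all genes. The effect in Dysf-/- minus that in wt mice was 1.71 for Cybb (95% confidence interval 1.29 to 2.13), 1.68 for Rac2 (1.37 to 1.99), 1.04 for Cyba (0.82 to 1.26), 0.78 for Nox4 (0.42 to 1.14), 0.75 for Ncf4 (0.44 to 1.06) and 0.57 for Ncf1 (0.31 to 0.84). The same interaction was called higher for 8.54% of genes, among them 14 of the 16 macrophage and monocyte markers (median 1.14) and 7 of the 14 fibroblast markers (median 0.45). It was called lower for 1 of the macrophage and monocyte markers and 0 of the fibroblast markers, beside 7.93% of all genes.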

How the results depend on the processing

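Of 1140 results for single members under the alternatives, 1104 kept their side of the threshold, 30 no longer passed, 4 newly passed and 2 that had passed changed sign. The 2 were Cyba and Rac2 against Nox4 in F66 against wt, at 0.0541 and 0.0283 with the second Nox4 row, chosen after seeing the data. Subunits differing from Nox4 went from 4 to 0 with that row and to 1 with the mean of both rows in F66 against wt, from 4 to 1 and 2 in F66;Dysf-/- against Dysf-/-, and from 2 to 1 and 2 against F66. The calls of all 6 genes in the 3 comparisons of F66;Dysf-/- muscle and in the interaction were kept in number under the alternatives run for them, except for the interaction over all rows, where Ncf1 did not pass (adjusted p = 0.0658). The methods' t-test was run for comparisons of 2 groups, and its counts here are after Benjamini-Hochberg adjustment. Members called in Dysf-/- against wt went from 1 to 0 with the compared groups only and with the t-test. In F66 against wt they went from 3 to 1 with the t-test and over all rows. In injected Dysf-/- against injected wt they went from 2 to 1 with the compared groups only and over all rows and to 0 with the t-test. At the methods' array threshold of p and fold together, taken with unadjusted p, the t-test called 1 member in Dysf-/- against wt (19 of all genes). It called 0 in injected wt against wt (4) and 0 in injected Dysf-/- against Dysf-/- (1). Single members were called in F66 against wt (133) and in injected Dysf-/- against injected wt (25). For F66;Dysf-/- muscle it called 4 against Dysf-/- (478), 3 against F66 (422) and 3 against injected Dysf-/- (371). Leaving out 1 array gave 0 to 2 for injected Dysf-/- against Dysf-/-, 1 to 2 for injected Dysf-/- against injected wt and 3 to 5 subunits differing from Nox4 (4 with all arrays) in F66;Dysf-/- against Dysf-/-. The replicate block, for numbers that pair no samples, left the limma counts of members as they were. Those were 1 in Dysf-/- against wt, 3 in F66 against wt and 2 in injected Dysf-/- against injected wt. They were 6 in each of the 3 comparisons of F66;Dysf-/- muscle and in the F66 interaction. Both injection comparisons within a genotype and the difference of the injection effects had 0. With the block, genes called over the table for injected Dysf-/- against Dysf-/- went from 5 to 87. The cause of these moves was not tested, except that the t-test estimates each gene's spread from 6 arrays alone.

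Counts over all genes moved by more than 1.5 times in several comparisons. Dysf-/- against wt had 99 calls, 29 with the compared groups only, 0 with the t-test after adjustment, 266 over all rows and as few as 31 without 1 array. Injected wt against wt had 6, and 0 to 12 otherwise. Injected Dysf-/- against Dysf-/- had 5, and 0 to 574 otherwise, and the difference of the injection effects had 1, and 0 to 3 otherwise. Injected Dysf-/- against injected wt had 387, and 65 with the compared groups only, 0 with the t-test and 169 as the lowest without 1 array. F66 against wt had 2759, and 692 with the t-test and 1550 with the compared groups only. F66;Dysf-/- against injected Dysf-/- had 9002 and 5769 with the t-test. Centring each array on its median raised the share of calls that were higher from 59.6% to 79.3% in F66 against wt, from 45.2% to 70.3% in F66;Dysf-/- against Dysf-/-, from 41.7% to 54.9% against F66 and from 36.5% to 71.5% against injected Dysf-/-, where it moved the median of all genes by 0.13. No member changed its call under centring.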
